A study of Mus musculus with 4 samples.

Results

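The genes described here are 10 ligands and antagonists of BMP and TGF-beta signalling: the ligands Bmp2, Bmp4, Bmp7, Tgfb1, Tgfb2, Tgfb3 and Inhba, and the antagonists Grem1, Nog and Fst. They were measured in mouse embryonic fibroblasts (MEFs), connective-tissue cells grown from embryos, that were labelled as lacking cyclin G1 or cyclin G2. Members were found by gene name among the gene probes of the arrays. All 10 genes were represented, by 11 of 41174 probes and 47 of 43379 gene spots. The genes were picked by name for their roles in these pathways, but with earlier results of these data known.

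The arrays were run to look for genes whose expression differs in cells with the knockout phenotypes. Each knockout culture was hybridised together with its own wild-type (WT) culture on a pair of 2-colour arrays, with the dyes Cy5 and Cy3 exchanged on the second array. The groups were CycG1-/- MEFs (G1KO), in which every coding exon of Ccng1 had been removed by gene targeting per the study's methods, CycG1+/+ (WT) MEFs, CycG2-/- MEFs (G2KO) and CycG2+/+ (WT) MEFs. All cultures were of the C57BL/6J background per the strain labels, although the source names of the G2KO pair read C57BL/7J. All were grown in serum-containing medium, without an added agent, in logarithmic growth phase. MEFs are a mixed primary culture, and the number of embryos behind each culture was not given in the sources used here. A dye-swapped pair is 1 replicate per genotype, so differences could not be tested and are given without p-values. Each ± value is the SD over both arrays of a pair. It measures technical spread alone, since no second culture of any genotype was measured.

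BMPs, TGF-betas and activins are secreted dimers of one superfamily. They assemble type I and type II receptor kinases, which phosphorylate SMAD proteins that then enter the nucleus and regulate transcription. BMPs act mainly through SMAD1, SMAD5 and SMAD9, whereas TGF-betas and activins act mainly through SMAD2 and SMAD3. Noggin and gremlin bind BMPs outside the cell, and follistatin binds activins with high affinity and some BMPs. In fibroblasts TGF-beta is known above all for inducing extracellular matrix genes.

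RefSeq promoter sequence of mouse assembly GRCm38.p6 was given for 5 of the 10 genes, namely Bmp4, Tgfb1, Tgfb2, Inhba and Grem1. The 150 bases before the annotated start are printed for Bmp4 and Grem1, which differed at least 2-fold between knockout and WT in at least 1 comparison, and for Inhba, whose difference stayed below 2-fold in both, so that their composition can be compared. They lie at chr14:46390670-46390819 (minus strand), chr2:113758649-113758798 (minus strand) and chr13:16011701-16011850 (plus strand), and capitals mark a match to one of the motifs searched.
Bmp4: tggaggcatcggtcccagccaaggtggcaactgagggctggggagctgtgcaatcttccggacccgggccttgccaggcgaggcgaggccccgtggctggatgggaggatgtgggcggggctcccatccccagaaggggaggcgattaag
Grem1: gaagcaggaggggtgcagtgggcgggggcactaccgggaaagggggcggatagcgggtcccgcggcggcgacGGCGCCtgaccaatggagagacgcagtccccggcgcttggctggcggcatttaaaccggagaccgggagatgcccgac
Inhba: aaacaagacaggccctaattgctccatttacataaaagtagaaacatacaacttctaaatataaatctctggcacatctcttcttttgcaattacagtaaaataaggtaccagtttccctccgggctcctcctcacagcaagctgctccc
The G and C content was 68.0% for Bmp4, 70.7% for Grem1 and 40.7% for Inhba, beside 76.0% for Tgfb1, 51.3% for Tgfb2 and a median of 54.0% over 32851 promoters. Both strands were searched for 5 motifs, which do not overlap one another in these windows. They were the GC-rich SMAD site GGCGCC, held by 7.01% of all promoters in the same 150 bases, the palindromic SMAD site GTCTAGAC (0.0731%), the AP-1 site TGACTCA (2.84%), the cyclic AMP response element TGACGTCA (1.36%) and the E-box CACGTG (4.30%). Grem1 held GGCGCC once, from base -78 to base -73 counted from the start, and Tgfb2 held CACGTG once, from base -51 to base -46. Bmp4, Tgfb1 and Inhba held none of these letters in this window.

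Fibroblast markers were well above background in all 4 RNAs, 11 of 11 genes in each, including Col1a1, Pdgfra and Thy1. Ccng1 was checked first among the targeted genes. Its brighter probe had a log2 ratio of G1KO over WT of -6.67 ± 0.13 (SD, 2 arrays) and of 2.67 ± 0.029 in the G2KO pair. The Ccng2 probe had 0.09 ± 0.27 in the G2KO pair, with 0.28 and -0.10 on the individual arrays, so it did not show the loss of Ccng2, and whether it lies in the deleted part was not given in the sources used here. The G2KO samples are therefore called the RNA labelled G2KO. Both knockout RNAs also carried more Xist, the RNA that coats the inactive X chromosome, and less of the Y-linked Eif2s3y than their WT. The Xist probe with the highest signal had log2 ratios of 7.54 and 7.24, and Eif2s3y was at least 82.3-fold and at least 51.2-fold lower, so genotype and the sex of the embryos cannot be told apart here. Over all probes tested, the pooled technical SD of a log2 ratio was 0.13 in each pair, and no spot was saturated.

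A probe was tested where at least 1 genotype was well above background on both arrays, and it was called where both arrays gave a difference of at least 2-fold (1 on the log2 scale) with the same sign. Of the 10 genes, 8 were tested in both comparisons, with 1 probe each. In G1KO, Bmp4 was lower and Fst was higher, so 2 of 8 members were called, against 5.79% of the 25541 probes tested (1.99% higher and 3.8% lower). In the RNA labelled G2KO, Bmp4, Tgfb3 and Grem1 were lower and Fst was higher, so 4 of 8 members were called, against 6.37% of the 25431 probes tested (2.31% higher and 4.06% lower). The members' median log2 ratio, taken without its sign, was 0.48 for G1KO and 0.90 for the RNA labelled G2KO, where over all probes tested it was 0.21 and 0.24. Bmp4 and Fst were called in both comparisons in the same direction. When arrays were centred on their median without loess, Bmp4 and Fst in G1KO and Grem1 in the RNA labelled G2KO passed 2-fold on 1 array alone and lost their calls.

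**Figure D1:**
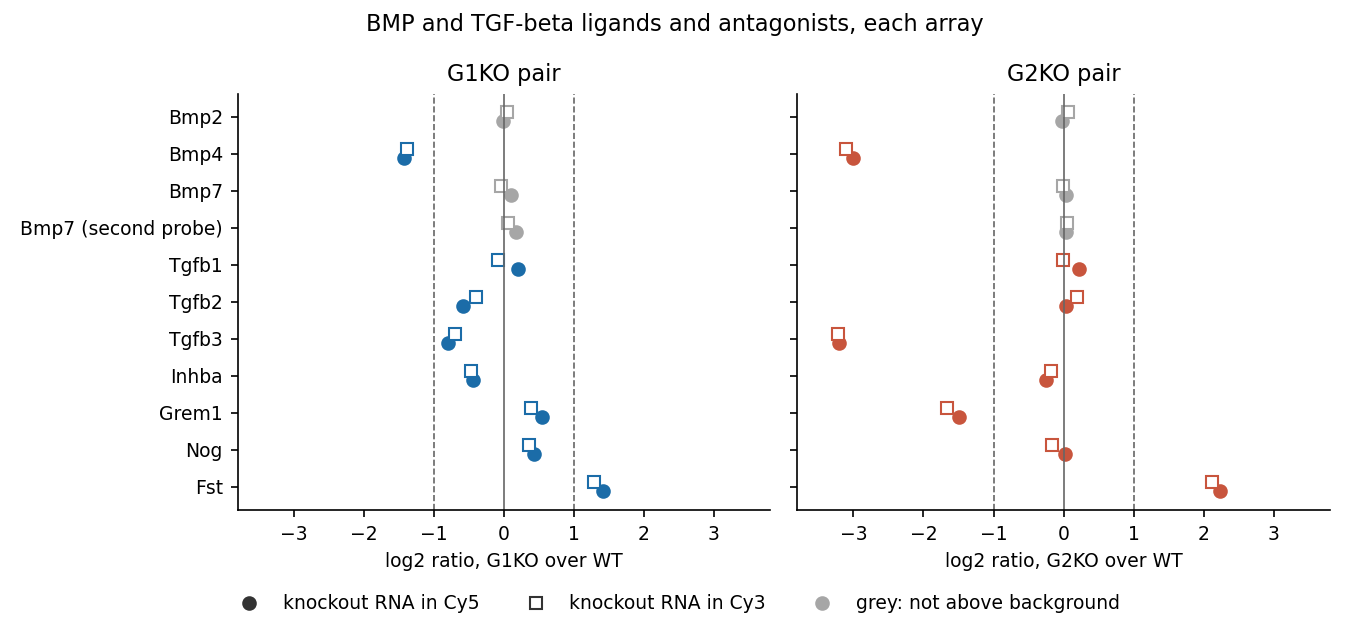
Log2 ratio of knockout over WT of every probe of the 10 genes on each array, in the G1KO pair (left) and the G2KO pair (right). Filled circles are arrays with the knockout RNA in Cy5, open squares arrays with it in Cy3, dashed lines mark a ratio of 1 in size, and grey points were not above background. Bmp4 lies at -1.43 and -1.38 on the left and at -3.01 and -3.10 on the right, and Fst at 1.42 and 1.28, and at 2.23 and 2.11.

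Among the 3 BMP ligands of the set, Bmp4 was the one measured above background, and it was lower in both knockout RNAs. Bmp4 patterns mesoderm and is made by many mesenchymal cells. Its probe lay on the minus strand of chromosome 14 at 45306004 to 45306063 (array design, build mm8) and was printed 10 times per array. In Cy5 the mean brightness of its spots was 1246 in G1KO and 3118 in its WT, and in Cy3 it was 522 and 1345. The log2 ratio was -1.43 with G1KO RNA in Cy5 and -1.38 with it in Cy3, and the 10 spots ranged from -1.49 to -1.37 and from -1.43 to -1.33. Bmp4 was thus 2.64-fold lower in G1KO, at -1.40 ± 0.036 (SD, 2 arrays), and every spot lay below the 2-fold limit.

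In the G2KO pair Bmp4 differed more. The brightness was 534 in the RNA labelled G2KO and 4290 in its WT in Cy5, and 218 and 2004 in Cy3. The log2 ratios were -3.01 and -3.10, and the 10 spots ranged from -3.12 to -2.91 and from -3.17 to -3.01. The fold was 8.32, at -3.06 ± 0.065 (SD, 2 arrays), and 162 of the 25431 probes tested had a larger ratio in size, where 869 of 25541 did in the G1KO pair.

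Bmp2 and Bmp7, which encode ligands close to Bmp4 in function, were not well above background in any of the 4 RNAs. The 10 spots of Bmp2 had a mean brightness of 41.0 to 44.0 on any array and channel, against local backgrounds of 27.2 to 35.3, and no spot passed the scanner's flag. Of the 10 spots of the first Bmp7 probe, 1 passed it in 1 channel of 1 array, and the second Bmp7 probe, printed once, did not pass. No fold is given for these genes.

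Tgfb3, a TGF-beta ligand that acts in palate and lung development, was lower in the RNA labelled G2KO. Its brightness there was 4215 in Cy5 and 1509 in Cy3, and in the WT of that pair it was 32766 and 15131. The log2 ratio was -3.21 on both arrays, with an SD of 0.0059, which is a 9.26-fold difference and the largest in size among the members in either comparison, although by the scanner's log ratio and the series table Bmp4 was larger there, at -3.28 beside -3.22 for Tgfb3. In the G1KO pair the brightness was 5121 and 8403 in Cy5 and 2149 and 3327 in Cy3. There the log2 ratios of -0.79 and -0.70 had the same sign but did not reach 2-fold on either array.

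Tgfb1 and Tgfb2, the other TGF-beta ligands, were not called in either comparison. Tgfb2 had log2 ratios of -0.58 and -0.40 against the WT in the G1KO pair, and of 0.03 and 0.19 in the G2KO pair, and the mean in G1KO was -0.49 ± 0.13 (SD, 2 arrays). Tgfb1, printed 10 times, had 0.20 and -0.08, and 0.22 and -0.01, so its sign differed between the dyes in both comparisons. Its mean brightness was 110 to 346 over all arrays and channels.

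Inhba encodes the subunit of activin A, a ligand that follistatin binds. Its brightness in Cy5 was 42791 in G1KO and 52292 in the WT of that pair, and 12257 and 13513 in the G2KO pair. The log2 ratios were -0.44 and -0.46 in the G1KO pair and -0.26 and -0.18 in the G2KO pair. The sign was negative on all 4 arrays and the size was below 2-fold, at 1.37-fold and 1.16-fold lower.

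Fst, which encodes follistatin, was the 1 member that was higher in both knockout RNAs. Its probe was annotated on the minus strand of chromosome 13, from 115575362 to 115576034 (mm8). The brightness was 29570 in G1KO and 12225 in its WT in Cy5, and 11559 and 3878 in Cy3. The log2 ratios were 1.42 and 1.28, and the fold was 2.55, at 1.35 ± 0.095 (SD, 2 arrays). In the G2KO pair the brightness was 7811 and 1845 in Cy5 and 3650 and 687 in Cy3. The log2 ratios there were 2.23 and 2.11, and the fold was 4.51, at 2.17 ± 0.085 (SD, 2 arrays). In each pair and each dye the knockout signal lay above the WT signal.

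Grem1, which encodes the BMP antagonist gremlin, was lower in the RNA labelled G2KO and was not called in G1KO. Its brightness was 14341 in the RNA labelled G2KO and 33343 in its WT in Cy5, and 4424 and 14837 in Cy3. The log2 ratios were -1.497 and -1.659, and Grem1 was 2.98-fold lower, at -1.58 ± 0.11 (SD, 2 arrays). In the G1KO pair the brightness was 16938 and 12112 in Cy5 and 6331 and 4139 in Cy3. The log2 ratios of 0.55 and 0.40 had the opposite sign and did not reach 2-fold. The difference between the comparisons was 2.05 on the log2 scale and was not tested.

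Nog, which encodes noggin, was dim. Its brightness was 112 and 70.7 in Cy5 and 74.1 and 48.3 in Cy3 in the G1KO pair, and its WT RNA was well above background on 1 of 2 arrays. The log2 ratios were 0.43 and 0.37 in the G1KO pair and 0.03 and -0.16 in the G2KO pair, and Nog was not called. Its ratio in the G1KO pair depended on how background was treated, and the scanner software's own ratio put it at 1.56, past 2-fold on both arrays.

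The level of each gene was then compared between the 4 RNAs, as normalised log2 intensity of the same probe. The WT RNAs differed from each other by at least 2-fold for 4 of the 8 members tested, namely Tgfb3, Grem1, Inhba and Fst. The knockout RNAs did so for 2 of 8, Inhba and Fst. Over the 24150 probes tested in both comparisons, 11.5% differed at least 2-fold between the WT RNAs and 9.06% between the knockout RNAs. In these RNAs fewer cells of a type and less RNA per cell cannot be told apart.

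For Tgfb3 the order from low to high was the RNA labelled G2KO at 11.35, G1KO at 11.59, the WT of the G1KO pair at 12.33 and the WT of the G2KO pair at 14.56. No neighbours overlapped between their 2 arrays, but the knockout RNAs lay 0.23 apart and the WT RNAs 2.23. For Grem1 the WT of the G2KO pair stood alone at 14.56. The remaining RNAs lay at 12.75 for the WT of the G1KO pair, 12.98 for the RNA labelled G2KO and 13.23 for G1KO, and the first 2 of these overlapped. The lower Tgfb3 and Grem1 signals in the RNA labelled G2KO were thus read against a WT with 4.70 and 3.49 times the signal of the other WT.

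For Bmp4 both knockout RNAs lay below both WT RNAs, at 8.57 for the RNA labelled G2KO, 9.56 for G1KO, 10.96 for the WT of the G1KO pair and 11.62 for the WT of the G2KO pair. None of these neighbours overlapped. Fst ran differently, from 10.28 in the WT of the G2KO pair to 12.45 in the RNA labelled G2KO, 12.73 in the WT of the G1KO pair and 14.08 in G1KO. The RNA labelled G2KO, although higher in Fst than its own WT, therefore lay 0.28 below the other WT, and no neighbours overlapped. Inhba separated the pairs rather than the genotypes, at 12.99 and 13.21 for the knockout and WT of the G2KO pair and 14.49 and 14.94 for those of the G1KO pair. For Tgfb2 the 3 lowest RNAs, at 11.41 to 11.51, overlapped from neighbour to neighbour. For Tgfb1 each knockout overlapped with its own WT, with the G2KO pair at 7.47 and 7.57 and the G1KO pair at 7.85 and 7.91. That overlap depended on the scaling. With quantile normalisation of all channels instead, no Tgfb1 neighbours overlapped, with WT and knockout at 7.44 and 7.62 in the G2KO pair and 7.83 and 7.93 in the G1KO pair. Nog was at 6.36, 6.76, 7.16 and 7.23, and its highest 2, the RNA labelled G2KO and its WT, overlapped.

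**Figure D2:**
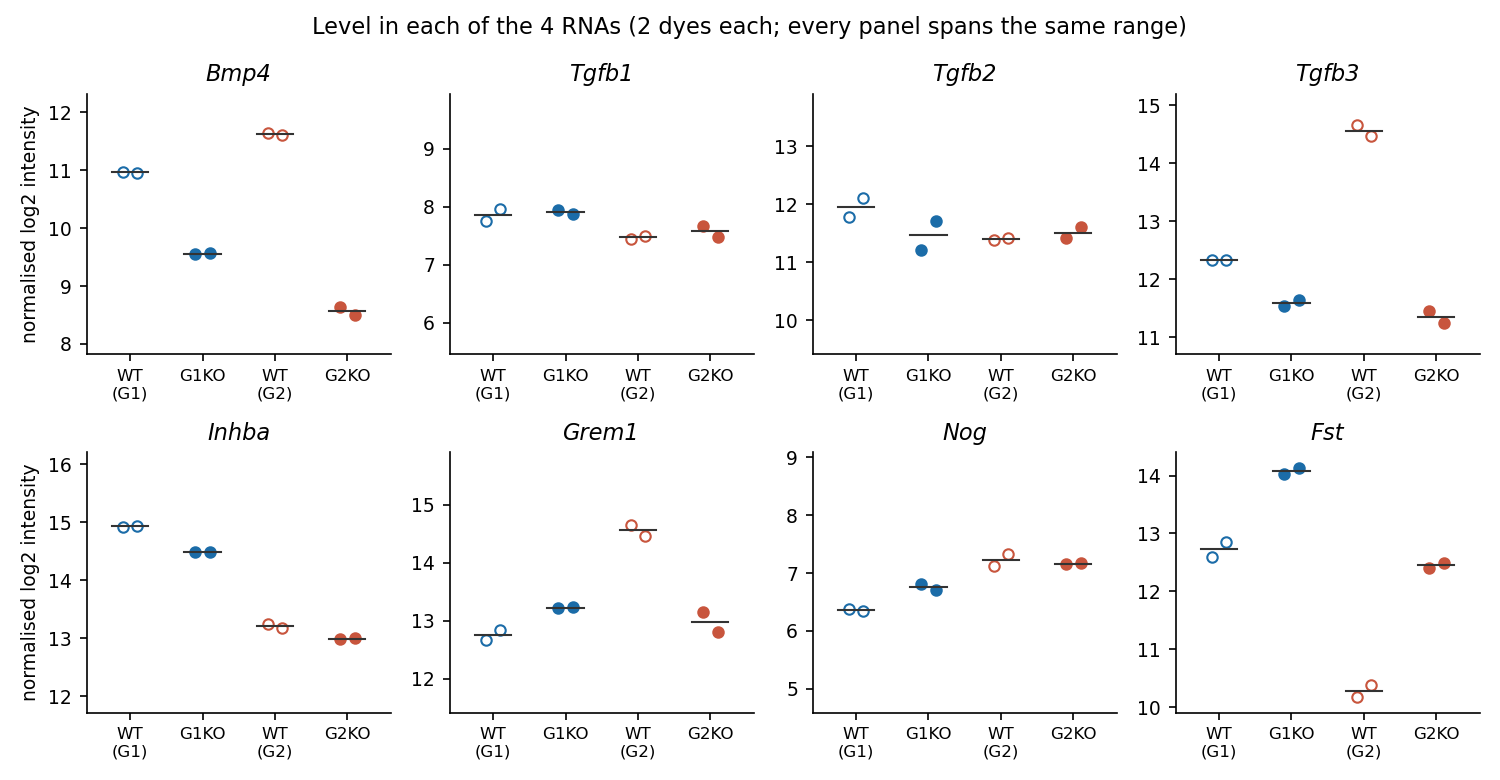
Normalised log2 intensity of the 8 members above background in the WT of the G1KO pair, G1KO, the WT of the G2KO pair and the RNA labelled G2KO. Points are the 2 arrays (1 per dye), bars their mean, open points WT and filled points knockout, and each panel has its own position but the same span. Bmp4 is lower in both knockouts than in both WTs, while for Tgfb3 and Grem1 the WT of the G2KO pair, at 14.56 for each gene, lies above the remaining RNAs.

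Set side by side, the log2 ratios in the G1KO and G2KO pairs were -1.40 and -3.06 for Bmp4, -0.74 and -3.21 for Tgfb3, 0.47 and -1.58 for Grem1 and 1.35 and 2.17 for Fst. The comparisons used different WT RNAs. Among all probes tested in both, 190 were called in the same direction and 221 in opposite directions. By distance on both log2 ratios, the genes nearest to Tgfb3 were Klf2, a zinc-finger transcription factor, with -0.64 and -3.24 (distance 0.10), Mmp3, a matrix metalloproteinase, with -0.63 and -3.22 (distance 0.11), and Stat6, a transcription factor of cytokine signalling, with -0.66 and -3.13 (distance 0.12). This likeness is over 2 comparisons.

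**Figure D3:**
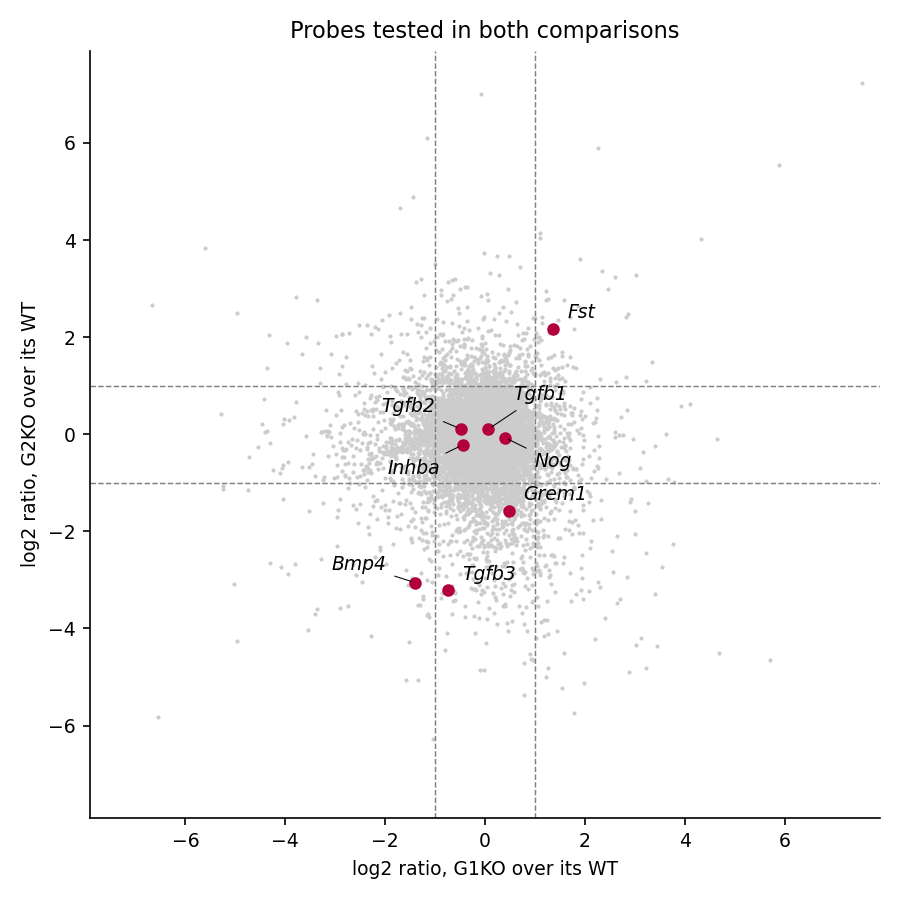
Log2 ratio of G1KO over its WT (x axis) against that of the RNA labelled G2KO over its WT (y axis) for the 24150 probes tested in both comparisons (grey) and the 8 members (red), with dashed lines at 1 in size. Fst lies at 1.35 and 2.17, Bmp4 at -1.40 and -3.06, and Tgfb1, Tgfb2, Inhba and Nog lie inside the lines.

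The rest of the pathway was described by gene lists, with the brightest tested probe of each gene. By this rule 2.46% of 16591 genes were higher and 4.47% were lower in G1KO, and 2.72% of 16517 genes were higher and 4.83% were lower in the RNA labelled G2KO. The median log2 ratio over all these genes was -0.0023 for G1KO and -0.016 for the RNA labelled G2KO. Some genes were in more than 1 list, among them Ltbp2, Smad6 and Smad7, so the lists are not independent of each other.

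Of 24 other ligands, 15 were tested in the G1KO pair, with 1 higher and 3 lower and a median of -0.09. Gdf6, a BMP family ligand of joints, had -4.56 and -4.65 in G1KO, and it was not tested in the G2KO pair, where it was not above background. Bmp3, a BMP family member that restrains BMP signals, was lower in both, at -1.54 ± 0.16 (SD, 2 arrays) with the G1KO signal above background on 1 of 2 arrays, and at -3.09 ± 0.042. Other scalings put it as low as -3.72 and -4.11 in the respective pairs. Lefty1, an inhibitor of nodal, was at -1.06 in G1KO. Gdf1 was higher in G1KO, at 1.103, and lower in the RNA labelled G2KO, at -1.53. In the G2KO pair 13 ligands were tested, with 1 higher and 3 lower and a median of -0.14. Inhbb, the subunit of activin B, was at 1.42, while its dimmer probe was at 0.48. Bmp8b was at least 2.12-fold lower. Under median centring without loess the calls of Gdf1 and Lefty1 in G1KO and of Gdf1 and Inhbb in the RNA labelled G2KO were lost.

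Of 21 other antagonists and matrix modulators, which hold or release ligands outside the cell, 17 were tested in each comparison. In G1KO 1 was higher and 2 were lower, with a median of 0.006. Ltbp2, of the family of latent TGF-beta binding proteins, had 1.96 and -3.39 in the respective pairs. Bmper, which binds BMPs, and Ltbp4 were lower in G1KO, at -1.499 and -1.119, and were at 0.43 and 0.57 in the other pair. In the RNA labelled G2KO 4 were lower and 1 was higher, with a median of -0.06. Chrdl1, a chordin-like BMP antagonist, had the largest difference of these, at -4.81 and -4.63, and its second probe was at -2.86. Fstl1, a follistatin-like protein, was at -1.65, and Tll1, a protease of the tolloid family that cleaves chordin, was at -1.33 (-2.47 at the lowest of the other scalings). The 1 higher gene, Crim1 at 1.06, falls outside the rule for naming genes and was named after its value was seen. Median centring ended the calls of Bmper and Ltbp4 in G1KO and of Fstl1 and Crim1 in the RNA labelled G2KO.

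Receptors and intracellular SMADs gave few calls, and calls were few over all genes as well. There 2.46% were higher and 4.47% lower in G1KO, and 2.72% and 4.83% in the RNA labelled G2KO. The counts that follow were not tested against these shares. Of 17 receptors and co-receptors tested in the G1KO pair 2 were higher and none was lower, namely Rgma, a BMP co-receptor, at 1.64, and Bambi, a pseudoreceptor that dampens TGF-beta signals, at 1.63, and none of 16 was called in the G2KO pair. The medians were 0.02 and 0.03. Of 16 SMADs and regulators tested in the G1KO pair, Tgif2, a SMAD corepressor, was called, at 1.34. Of 15 in the G2KO pair, Smurf2, a ubiquitin ligase for SMADs and receptors, was called, at -1.06, and its dimmer probes were at -0.87 and -0.73 and were not called. None of these 4 calls, of Rgma, Bambi, Tgif2 and Smurf2, remained under median centring. The inhibitory SMAD Smad6 had -0.93 and -0.10 in the respective pairs and was not called. Smad7, the other inhibitory SMAD, had -0.20 and -0.59 in the G1KO pair and 0.63 and 0.21 in the G2KO pair, and it was not called.

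Genes known to respond to BMP included none that was called lower, although other scalings of the arrays called up to 1 lower in each comparison. In the RNA labelled G2KO, where Bmp4 was lowest, 3 of 11 were higher and none was lower, with a median of 0.47. Id1, the classical early BMP target, had 1.503 and 1.633, Id2 had 1.71 and 1.56, and Msx2, a homeobox gene, had 2.84 and 2.73. Id3 had -0.86 and -0.74 and was not called. In G1KO, 2 of 10 were higher and none was lower, with a median of -0.33. Id4 was at 1.31 there, and Msx2, whose WT signal was not above background, was at least 2.39-fold higher. Id1 had -0.86 and -0.81 in G1KO, Id3 had -0.18 and 0.07, and neither was called. The calls of Id4 in G1KO and of Id2 in the RNA labelled G2KO were lost under median centring. The second probes of Id1 were at -0.80 and 1.54.

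TGF-beta target genes were called in both directions. In G1KO, 3 of 14 were higher and 1 was lower, with a median of 0.13, and in the RNA labelled G2KO 1 was higher and 5 were lower, with a median of -0.43. Ltbp2, already counted with the matrix modulators, was 1 of those higher in G1KO and 1 of those lower in the RNA labelled G2KO. Tgfbi, an extracellular matrix protein named for its induction by TGF-beta, had 2.61 and 2.78 in G1KO and -3.43 and -3.37 in the RNA labelled G2KO. Ctgf, a matricellular growth factor, had the opposite signs, with -1.62 and -2.16, and 2.14 and 1.66. Postn, a matrix protein of connective tissue, had -4.14 and -4.24 in the RNA labelled G2KO, where a dimmer probe had -0.65. Snai2, a transcription factor that represses epithelial genes, was higher in G1KO, at 1.22, and was called lower in the G2KO pair. Its relative Snai1 was lower there, at -1.40, and it falls outside the rule for naming and was named after its value was seen. With median centring Ctgf and Snai2 lost their calls in both comparisons, and so did Snai1 in the RNA labelled G2KO.

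**Figure D4:**
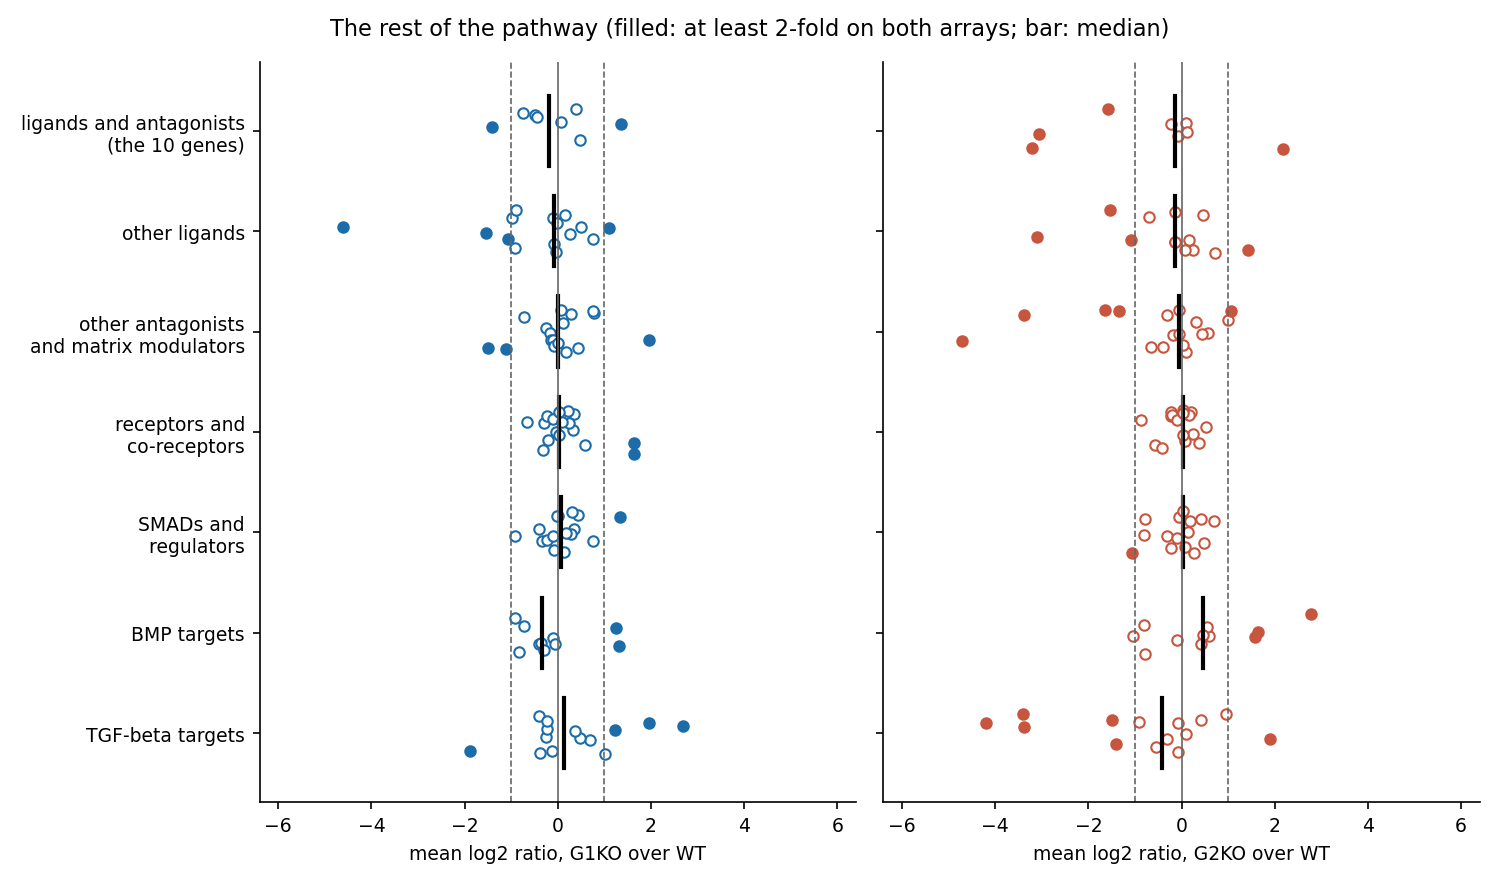
Mean log2 ratio of knockout over WT of the members and of the genes of 6 pathway lists, in the G1KO pair (left) and the G2KO pair (right). Each point is 1 gene by its brightest tested probe, filled where called, black bars are medians and dashed lines mark 1 in size. Genes in more than 1 list are drawn in each. Receptors and SMADs, like most of all genes tested, lie mostly between the lines. Antagonists and TGF-beta targets reach -4.72 and -4.19 in the RNA labelled G2KO.

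Markers of cell types also differed between the RNAs compared. Of 11 fibroblast markers, 7 were lower in the RNA labelled G2KO and none was higher, with a median of -2.03 (-1.25 by the median of a gene's probes). Among them were Pdgfra at -4.63, Thy1 at -3.22, Col3a1 at -2.90 and Twist2 at -2.49. A dimmer probe of Pdgfra was at -0.59 and was not called. Dimmer probes of Col3a1 were at -1.25, which was called, and at -0.27, which was not. The summed normalised intensity of the fibroblast markers was 321905 to 473743 in the RNA labelled G2KO and 839761 to 868129 in its WT. Neural and glial markers held Sox2 at 5.59 and Nes at 3.37, the 2 called of 5 tested, and their sum was 22344 to 22610 against 2733 to 3098, with Gfap not above background in either. Of 5 cartilage and bone markers tested, 2 were lower and none was higher, with a median of -0.18. These were Sox9, at -3.08, and Col2a1, whose dimmer probe was at 0.63 and was not called. The call of Col2a1 was lost under median centring. The part of these markers in the values of Bmp4, Tgfb3, Grem1 and Fst in the G2KO pair was not tested.

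In the G1KO pair, 2 of 11 fibroblast markers were higher and none was lower, with a median of 0.17. Their sums were 378715 to 526582 in G1KO and 600262 to 639159 in its WT. A sum weighs the brightest markers most, so it can fall where the median ratio does not. The brightest in this WT, S100a4, had -0.42 and -1.67 on the respective arrays and was not called. It falls outside the rule for naming and was named after its value was seen. Of 8 mesothelial markers 6 were lower, with a median of -2.92. Lrrn4, listed as B430119L13Rik, was at -5.92, Upk1b at -5.51, Upk3b at -4.25 and Wt1 at -3.04, whereas Krt19 was the 1 that was higher, at 2.90. Their sum was 56753 to 61877 in G1KO and 233510 to 273664 in its WT. In the G2KO pair it was 3923 to 4267 in the knockout and 1846 to 1910 in its WT. Upk1b, Upk3b, Wt1, Lrrn4 and Krt8 were not above background in either RNA of that pair. The sum thus separated the WT RNAs as well. Of 3 mesothelial markers tested in the G2KO pair, Msln was higher, at 1.60, and Krt19 was lower, at -1.40. In the G1KO pair the part of these markers in the values of Bmp4 and Fst was not tested. Epithelial markers were called for 1 of 3 tested (Krt14 at -2.09), endothelial markers for 1 of 2 (Emcn at -2.65), muscle markers for 2 of 5 (Cnn1 at 1.57 and Myh11 at 1.03, both lost under median centring) and neural markers for 1 of 4 (Nes at 2.34). Only these 2 of the 5 muscle markers had a ratio above 0, and the muscle median was -0.08. The summed intensity of the muscle markers was 278877 to 284497 in G1KO and 281248 to 294234 in its WT. Of 5 macrophage markers, 2 or 3 were above background in each RNA, with Cd68 in all 4, and none was called in either comparison. Ptprc and Emr1, which define leukocytes and macrophages, were not above background in any of the 4 RNAs.

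**Figure D5:**
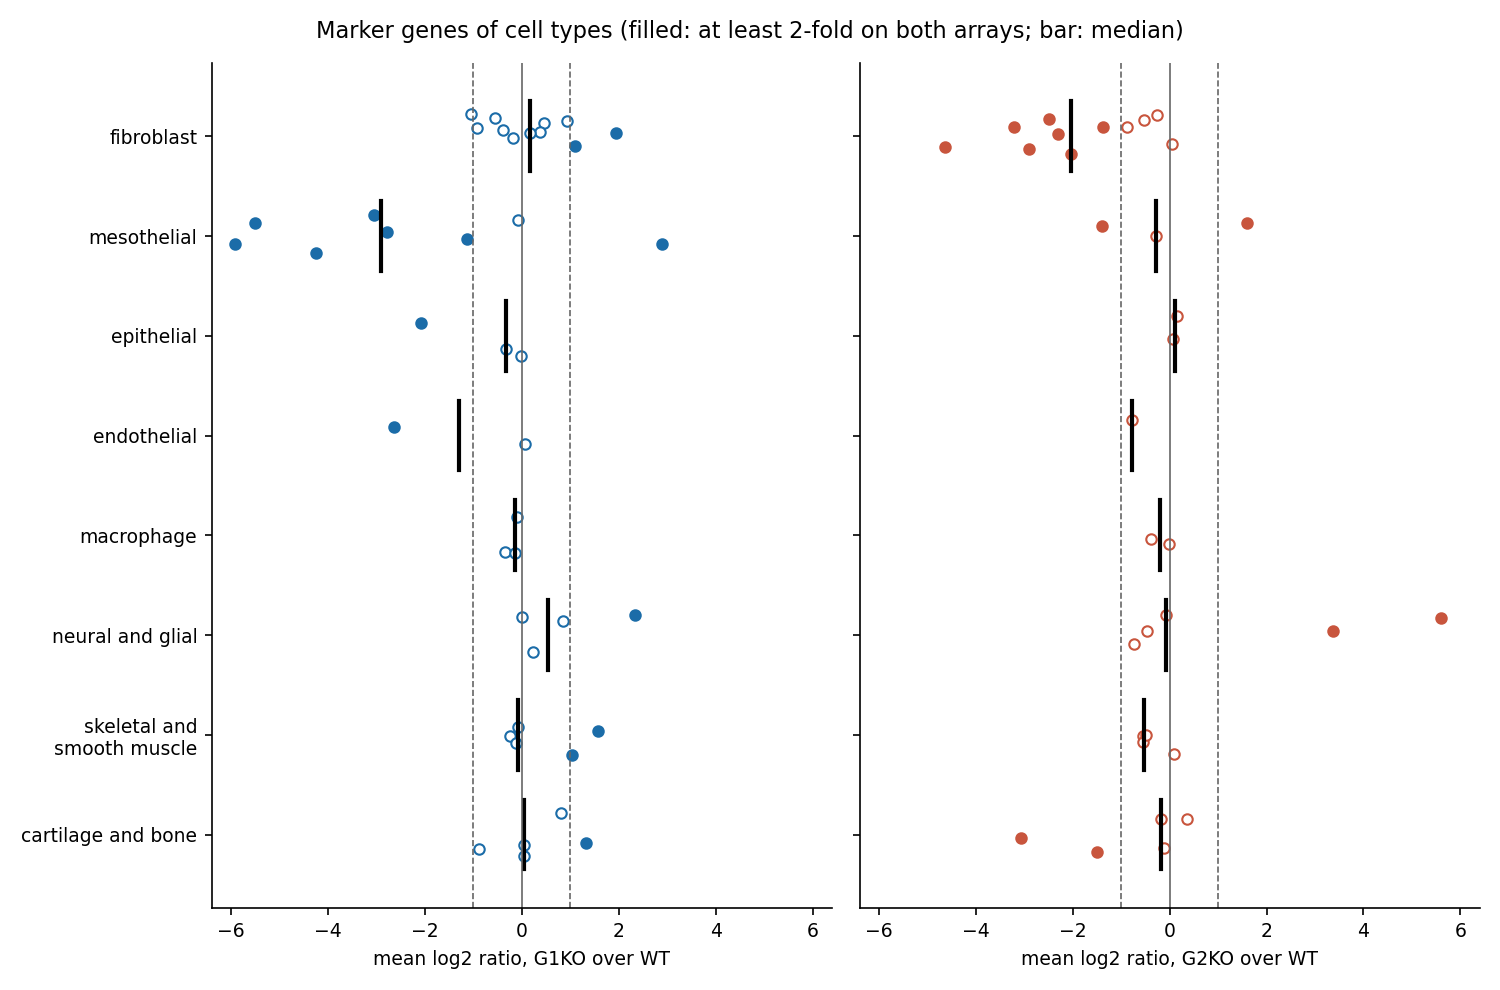
Mean log2 ratio of knockout over WT of marker genes of 8 cell types in the G1KO pair (left) and the G2KO pair (right). Each point is 1 gene by its brightest tested probe, filled where called, and black bars are medians. Mesothelial markers have a median of -2.92 on the left, and fibroblast markers one of -2.03 on the right.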

How the data were processed

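RNA of 1 knockout and 1 WT culture per genotype was hybridised to a dye-swapped pair of Agilent 4x44K mouse arrays, all 4 on 1 slide. The deposited scanner output gives linear intensity per channel, as the mean over a spot's pixels and the median of the local background, with no normalisation. They also hold the log10 ratio of Cy5 over Cy3 that the authors obtained with Agilent Feature Extraction (10.5.1.1 per the file headers, 9.1 per the submitters' processing notes). The authors' deposited series table holds the same log10 ratio (r of 0.999999 in size), turned to knockout over WT.

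Intensities were corrected with normexp (offset 50), outlier and control spots were left out, and each array was normalised by loess with limma 3.58.1 in R 4.3.3. Spots of a probe were averaged and ratios turned to knockout over WT. Levels were scaled between arrays by Aquantile. Detection was the scanner's flag on at least 50% of a probe's spots. On a call, a genotype never above background gave a bound, "at least N-fold". It was set against that genotype's own level or the lowest signal well above background, whichever was higher. The number of arrays limits the precision. The script was tested on simulated data. Names came from the RefSeq table by accession (24375 probes), symbol (6301) or synonym (2426), and 8072 kept the file's name. The genes named were the members, Ccng1 and Ccng2, at most 4 called genes per list and comparison by size, 6 fixed targets, and the 3 genes nearest to Tgfb3. Xist and Eif2s3y were named after their values were seen. Members and lists were chosen with earlier results of these data known. The scanner's p-values within an array were not used. A few listed genes are not reported here and were left out of the lists, their counts and their medians.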

Additional observations from a re-analysis of the deposited data

Results flagged for a closer look

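For 27 of the genes named, both arrays of the G1KO pair had one sign and both arrays of the G2KO pair the other. The difference between the comparisons was not tested for any of them, and they used different WT RNAs. The values that follow are the G1KO log2 ratio minus the G2KO log2 ratio. Among the members, Grem1 had 2.05 and Tgfb2 had -0.60, although Tgfb2 was not called in either comparison. Among antagonists and matrix modulators, Chrdl1 had 5.50, Ltbp2 5.35, Bmper -1.93, Crim1 -1.78 and Ltbp4 -1.69. Among other ligands and receptors, Gdf1 had 2.63, Bmp8b 1.84 and Bambi 2.50. Among targets and SMADs, Tgfbi had 6.09, Postn 5.21, Snai2 2.72, Snai1 1.88, Ctgf -3.79, Id1 -2.40, Id2 -2.00 and Smad7 -0.82. Among markers, Pdgfra had 5.55, Twist2 4.43, Sox9 4.40, Krt19 4.29, Cnn1 2.07, Pdgfrb 1.97 and Myh11 1.59, and Msln, a mesothelial marker, had -4.38. Ccng1, the gene targeted in G1KO, had -9.33. The values of Chrdl1, Bmp8b and Myh11 each rest on a genotype whose signal neither array found well above background, so their size is not well measured. Over other scalings the ratio of Chrdl1 in G1KO ran from 0.78 to 4.35, that of Bmp8b from 0.75 to 3.90 in G1KO and from -4.39 to -1.08 in the RNA labelled G2KO, and that of Myh11 in the RNA labelled G2KO from -2.19 to -0.56.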

How the results depend on the processing

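In the G1KO comparison the 2 called members, Bmp4 and Fst, were also called under each of 9 other settings tried at the 2-fold limit, but under median centring without loess none was (0 members), since each of them then passed 2-fold on 1 array, at -0.72 and -2.00 for Bmp4 and 2.303 and 0.454 for Fst. In the G2KO comparison Grem1 lost its call under median centring, at -0.50 and -2.37. Leaving out either array gave 2 and 4 members, and 1678 to 1691 and 1838 to 1848 probes in all. With a 4-fold rule 0 members were called in G1KO and 385 probes in all, and 3 members (Bmp4, Tgfb3 and Fst) and 467 probes in the G2KO comparison. A 1.5-fold rule called 3 members in G1KO, Tgfb3 in addition to Bmp4 and Fst, and 4 in the G2KO comparison, among 3340 and 3714 probes. All probes called numbered 813 and 955 under median centring, 2855 and 3396 by the scanner's log ratio, and 2849 and 3392 by the series table. By the scanner's log ratio and the series table Nog was also called in G1KO, and its ratio there ranged from 0.37 to 1.56. Bmp4 ranged from -1.44 to -1.36 in G1KO and from -3.28 to -2.97 in the RNA labelled G2KO. No member ratio that was called changed sign. The cause of the other shifts was not tested. All 4 arrays shared 1 slide, so the slide as a block was not run. No paired analysis was possible because each dye-swapped pair holds 1 replicate per genotype. Dim signals limit Nog, Bmp2 and Bmp7.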
